A study of Mus musculus with 15 samples.

Results

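Vcam1, Icam1 and 7 leukocyte integrin subunit genes (Itga4, Itga9, Itgb1, Itgb7, Itgal, Itgam and Itgb2) were followed in macrophages of the mouse dura mater from the embryo to the adult. The 9 genes were taken by name from a list of adhesion molecules and integrins and were matched by symbol in a count table of 53546 genes. All 9 passed the filter on low counts. The libraries were bulk RNA-seq of CD206-positive cells sorted from the dura of untreated C57BL/6J mice of the genotype Cx3cr1GFP/wt, in which 1 copy of the Cx3cr1 gene is replaced by GFP. All ages carry this allele. There were 3 libraries of embryos (E14.5, the day of gestation) and 3 for each postnatal age, P3, P10, P21 and P56, with P followed by the day after birth. The labels put the P56 libraries in another sequencing project than the other 4 ages, so for P56 age and project cannot be told apart.

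Vcam1 and Icam1 encode cell surface proteins of the immunoglobulin superfamily to which leukocyte integrins bind. Integrins are pairs of an alpha and a beta chain. Itga4 pairs with Itgb1 (VLA-4) or Itgb7, and Itga9 pairs with Itgb1. The Itga4 and Itga9 pairs bind Vcam1. Itgal and Itgam pair with Itgb2 as LFA-1 and Mac-1 (CD11b/CD18), and both bind Icam1. Vcam1 and Icam1 are best known on activated endothelium, where they hold rolling leukocytes, but tissue macrophages can express both.

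A library held 17550170 to 30614583 counts in all, with 10 counts or more in 11254 to 13654 genes. Pearson's r of log2 levels between libraries of an age was 0.843 to 0.948. Levels are CPM, the count as a share of the library's tested genes after TMM scaling, and are given as mean ± SD with n = 3 libraries, unless stated otherwise. All 12 macrophage markers examined (among them Mrc1, the gene of CD206, Csf1r and Adgre1) were above 10 CPM on average at every age, and their sum was 14180 to 21980 CPM of the total count. Among the libraries, P56 replicate 4 was the lowest of its age for 8 of the 9 genes and the highest for Itgb7. Its macrophage marker sum was 14180 CPM of the total, against 21980 and 21830 in P56 replicates 5 and 6. Its sum of 10 monocyte markers, led by Ccr2, was 460 CPM of the total, against 52.3 to 110 in the other P56 libraries. P56 replicate 5 had a sum of 10 mast cell markers of 299.7 CPM of the total, against 10.3 and 15.7. The part of these cells in the levels below was not tested.

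Levels of different genes were compared per kilobase (kb) of exon. Vcam1 stood at 2.49 ± 0.382 CPM per kb in the E14.5 libraries, just below the range of the 4 alpha chains (2.53 to 9.92), and at 161 ± 57.8 in those of P21. Per kb of the principal transcript it lay within their range at E14.5 (6.37, against 3.62 to 10.9). Itgb1, the beta chain shared by the matrix and Vcam1 receptors, led at E14.5 (174 ± 5.07 CPM per kb), P3 (132 ± 3.77) and P10 (117 ± 4.96). At P21 the order by mean was Vcam1, Itgb1 (138 ± 9.53), Icam1 (101 ± 27) and Itgb2 (83.7 ± 5.69), and Vcam1 and Itgb1 did not differ beyond their spread. On the scale of the principal transcript Vcam1 also led at P21 (411), followed by Icam1 (174) and Itgb1 (148). The alpha chains lay far below at this age, at 11.2 ± 3.01 for Itga9, 10.6 ± 0.563 for Itgam, 2.59 ± 1.61 for Itga4 and 1.66 ± 0.713 CPM per kb for Itgal, and Itgb7 had 2.02. Exon lengths are those of GENCODE M21, and the annotation behind the deposited counts is not given in the sources used here.

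**Figure D1:**
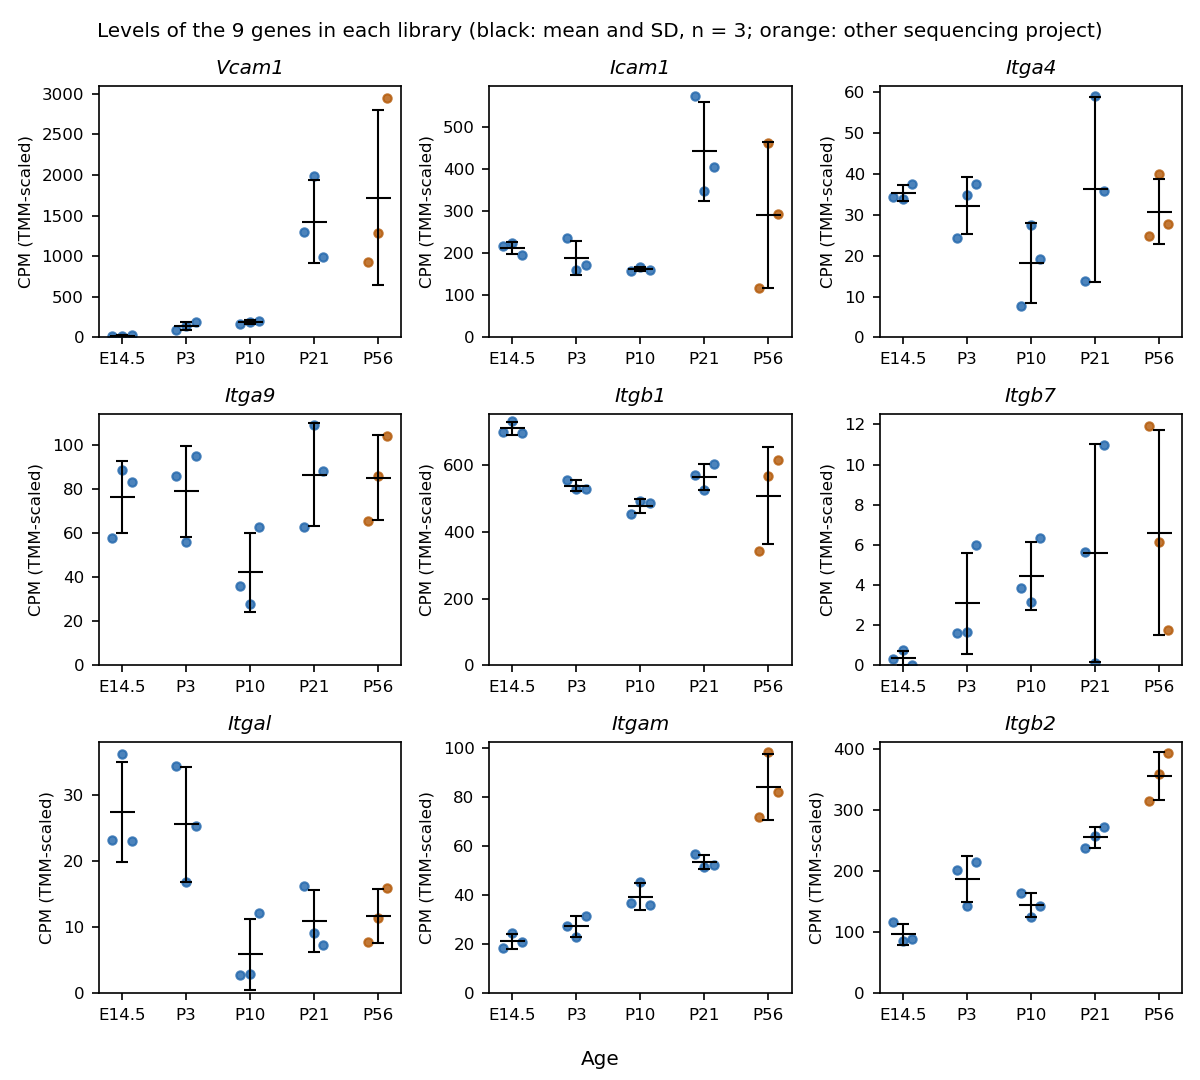
Levels of the 9 genes in each library, in CPM scaled by TMM on the vertical axis (each panel has its own scale, from 0), by age on the horizontal axis. Each point is 1 library, black lines are the mean and SD of 3 libraries, and orange marks the P56 libraries of the other sequencing project. Vcam1 sits between 19.4 and 25.9 CPM at E14.5 and between 991 and 1992 at P21, while Itga4 and Itga9 overlap between most ages.

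In the 12 libraries from E14.5 to P21, which share a project, 5 of the 9 genes differed between ages (edgeR quasi-likelihood F-test, adjusted p under 0.05), against 12.3% of all 14287 genes tested. They were Vcam1 (adjusted p = 1.12e-06), Icam1 (0.00102), Itgb2 (0.00165), Itgam (0.00403) and Itgb1 (0.00446). Itgal (0.0639), Itga9 (0.161), Itgb7 (0.289) and Itga4 (0.46) did not pass. The first 5 were called in every alternative run of this test. Itgal passed as well with scaling by total count (0.0352), with no filter (0.013), with a filter of 5 CPM in 3 libraries (0.0399), in limma voom (0.0165), in DESeq2 (0.00358) and without P10 replicate 3 (0.00609). Itga9 passed in DESeq2 (0.0475) and without P10 replicate 3 (0.0499), so limma voom called 6 of the 9 and DESeq2 7.

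Vcam1 rose in 2 steps. It stood at 19.4, 20.9 and 25.9 CPM in the E14.5 libraries and at 95.6, 135 and 194 at P3. The P10 libraries had 168, 195 and 207 CPM, and those of P21 had 1296, 1992 and 991. At P56 the levels were 926, 1289 and 2950 CPM. Every P3 library lay above every E14.5 library and every P21 library above every P10 library, while P3 overlapped P10 and P21 overlapped P56.

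From E14.5 to P3 the log2 change was 2.68 ± 0.40 (SE, adjusted p = 0.00311). From P10 to P21 it was 2.91 ± 0.40 (adjusted p = 0.00325), and over the whole span from E14.5 to P21 it was 6.01 ± 0.46, a fold of 64.5 (adjusted p = 1.3e-06). The steps from P3 to P10 (0.43 ± 0.37, adjusted p = 0.806) and from P21 to P56 (0.27 ± 0.37, adjusted p = 0.865) did not pass. The call at P3 was not made by limma voom (adjusted p = 0.0924). The P21 and P56 libraries spanned 2.01-fold and 3.18-fold from lowest to highest, so the order of these ages is not resolved.

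Vcam1 is also a gene of endothelial cells and of stromal cells, so markers of these cells were set beside it. As CPM of the total count, the sum of 12 endothelial markers ran from 61.7 to 63.8 in the embryo, 91.9 to 118 at P3, 99.9 to 148 at P10, 58.3 to 96.8 at P21 and 74.6 to 92.3 at P56. On the same scale Vcam1 averaged 25.2 ± 3.99 CPM at E14.5, 157 ± 56.15 at P3 and 196 ± 17.6 at P10. At P21 and P56 it averaged 1307 ± 458 and 1418 ± 845 CPM. The range of the endothelial sum lay above that of Vcam1 at E14.5, overlapped it at P3 and lay below it at P10, P21 and P56. Egfl7 was the single endothelial marker above 10 CPM on average at any age. Every P3 sum of the endothelial markers lay above every E14.5 sum. Of the 8 endothelial markers tested, 1 was called as higher from E14.5 to P3, beside 1.67% of all genes. From E14.5 to P21 1 was called as higher, beside 7.81%. None was called from P10 to P21, beside 1.14%. At P21 Cdh5 had 1.26 ± 1.06 and Pecam1 0.993 ± 1.60 CPM, and Sele, the selectin of activated endothelium, had no count from P3 to P56.

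The sum of 12 fibroblast markers moved with Vcam1 over part of the range. On the same scale it ran from 71.2 to 721 CPM in the embryo, 554 to 2520 at P3, 682 to 2782 at P10 and 1071 to 1896 at P21. From E14.5 to P21 4 of the 12 markers rose, beside 7.81% of all genes called as higher. From P10 to P21 none of the 12 was called, beside 1.14% of all genes, and their libraries' sums overlapped. At P56 the sum was 132 to 182 CPM, below every library of P3, P10 and P21. On this scale Vcam1 had 21.8 to 29.6 CPM at E14.5, 105 to 216 at P3 and 179 to 214 at P10. It had 935 to 1818 at P21 and 792.5 to 2379 at P56. The fibroblast sums lay above Vcam1 at E14.5, P3 and P10 and overlapped it at P21. They lay below it at P56, the age in the other sequencing project. For 10 mural cell markers, the lowest and highest sums on this scale were 3.57 and 6.28 CPM in embryos. They were 19.6 and 31.85 for P3, 17.2 and 45.9 for P10, 20.9 and 39.9 for P21, and 3.94 and 15.9 for P56. Every P3 library thus lay above every embryo library. Of the 9 mural cell markers tested, 2 were called as higher from E14.5 to P21 and none as lower, beside 7.81% of all genes called as higher. In bulk libraries, fewer cells of a type and less RNA per cell cannot be told apart. The part of endothelial cells, fibroblasts and mural cells in the levels of Vcam1 was not tested.

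**Figure D2:**
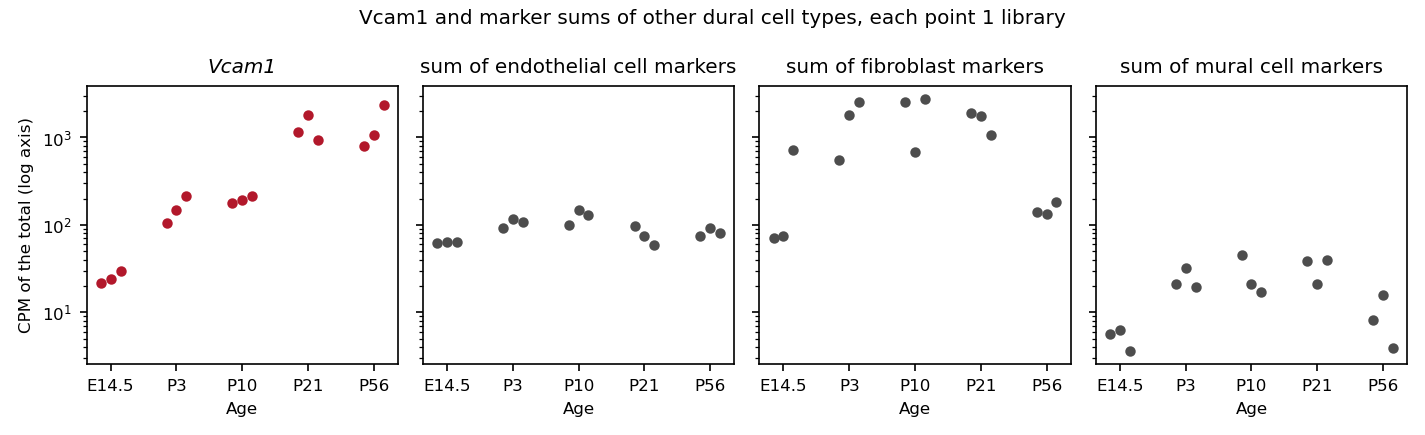
Vcam1 and the summed markers of endothelial cells (12 genes), fibroblasts (12 genes) and mural cells (10 genes) in each library, in CPM of the total count on a log axis, by age. Each point is 1 library. The endothelial sums stay between 58.3 and 148 CPM at all ages. The fibroblast sums lie between 1071 and 1896 CPM at P21, where Vcam1 averages 1307 CPM. They drop to between 132 and 182 CPM at P56, where Vcam1 averages 1418 CPM.

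Icam1 was already present in the embryo and had its highest mean at P21. The E14.5 libraries had 218, 223 and 196 CPM, those of P3 had 236, 160 and 172, and those of P10 had 159, 168 and 161. At P21 the levels were 574, 347 and 405 CPM, above every library of the 3 younger ages. At P56 they were 117, 462 and 293 CPM, a range that overlaps those of all other ages.

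The log2 change from P10 to P21 was 1.44 ± 0.35 and did not pass in the edgeR fit of all 15 libraries (adjusted p = 0.0705). The same holds from E14.5 to P21 (1.06 ± 0.35, adjusted p = 0.0654). With the same 15 libraries both passed in limma voom (adjusted p = 0.0435 and 0.0387), in DESeq2 (0.00109 and 0.0107) and with a filter of 5 CPM in 3 libraries (0.0391 and 0.0354). Both also passed in fits of the ages compared alone (0.0364 and 0.0197), without P56 replicate 4 (0.00475 and 0.00499), without P56 replicate 5 (0.0321 and 0.0278) and in the fit of the 12 libraries of one project (0.00339 and 0.00298). Without P56 replicate 4 the estimates were 1.44 and 1.05. With scaling by total count they were 1.27 and 0.74, and neither passed (adjusted p = 0.0905 and 0.164). Leaving out any 1 library other than P56 replicate 4 or 5 gave no call (adjusted p up to 0.233 and 0.213). The P56 libraries of Icam1 spanned 3.96-fold. The P56 mean was 290 ± 173 CPM, and its order against E14.5 turns when CPM of the total is used instead (241 ± 144 at P56 and 242 ± 17.5 at E14.5). Reads of an antisense gene that shares 11.7% of the exon bases of Icam1 cannot be told apart without strand information, but that gene had 0 to 44 counts in any library.

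NF-kappaB sites upstream of the Icam1 start are a textbook route of its induction, so the 250 bases before its RefSeq start were read from the promoter table (GRCm38.p6, chr9:21015690-21015939, plus strand). Such entries were found for 6 of the 9 genes. Capitals mark matches, on either strand, to GGNNTTNCC, a core of kappaB-like sites.
Icam1: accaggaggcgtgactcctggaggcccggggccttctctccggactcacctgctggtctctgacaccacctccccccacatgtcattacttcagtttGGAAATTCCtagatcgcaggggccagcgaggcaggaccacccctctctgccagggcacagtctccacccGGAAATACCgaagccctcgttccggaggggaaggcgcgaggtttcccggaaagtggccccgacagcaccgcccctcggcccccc
The 2 matches lie at -153 to -145 and at -84 to -76 from the start. Of 32851 promoter windows of up to 300 bases in the table, 16% hold at least 1 such match, so a match is common and describes letters only. Among the 6 genes, Itgb1 had 1 match and the others had none. Rela, the gene of the p65 subunit, had 147 ± 36.9 CPM at P10 and 273 ± 35.2 at P21 (log2 change 0.90 ± 0.22, adjusted p = 0.0721), and it differed between the 4 ages of one project (adjusted p = 0.0182).

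The alpha chains of the Vcam1 receptors passed in none of the 5 comparisons in edgeR or limma voom, and DESeq2 called 1 step of Itga9. Itga4, the alpha chain of VLA-4, had 34.4, 33.9 and 37.6 CPM at E14.5 and 24.4, 34.8 and 37.6 at P3. At P10 it had 7.80, 27.4 and 19.3 CPM, and at P21 13.8, 59.0 and 35.8. The P56 libraries had 24.7, 39.9 and 27.8 CPM. All neighbouring ages in the order of means overlapped, and no step passed. The spread at P21 was 4.26-fold between libraries, so only a large change could have been detected. Between E14.5 and P21 the log2 change was 0.04 ± 0.47 (adjusted p = 0.978), and it turned to -0.27 with scaling by total count.

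Itga9, the other alpha chain that binds Vcam1, had the lowest mean at P10. Its libraries read 57.7, 88.3 and 82.9 CPM at E14.5, 85.9, 55.8 and 95.01 at P3, and 35.8, 28.0 and 62.5 at P10. At P21 they read 62.5, 109 and 87.9 CPM, and at P56 65.6, 85.6 and 104. P10 lay just below P21 in every library, yet neither the step down to P10 (log2 change -0.91 ± 0.32, adjusted p = 0.335) nor the step up to P21 (1.04 ± 0.32, adjusted p = 0.149) passed in edgeR. DESeq2 called the step up to P21 (adjusted p = 0.0323). Over the whole span the change was 0.18 ± 0.32 (adjusted p = 0.778), and -0.13 with scaling by total count.

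Itgb1 was abundant and even between libraries. It had 698, 733 and 696 CPM at E14.5, 556, 529 and 529 at P3, and 454, 492 and 487 at P10. The P21 libraries had 568, 524 and 601 CPM and those of P56 had 343, 567 and 614. Within E14.5, P3, P10 and P21 the highest library was 1.05 to 1.15 times the lowest, and the E14.5 libraries lay above all others.

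Itgb1 differed between the 4 ages of one project, as given above. The step from E14.5 to P3 had a log2 change of -0.40 ± 0.16 (adjusted p = 0.306), and the span from E14.5 to P21 had -0.33 ± 0.16 (adjusted p = 0.219). With the 12 libraries of one project both passed (-0.39, adjusted p = 0.0359, and -0.34, adjusted p = 0.0208), as they did without P56 replicate 4 (adjusted p = 0.0286 and 0.0174). With scaling by total count the span from E14.5 to P21 was -0.64 (adjusted p = 0.0126), so its size depends on the scale.

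Itgb7, the alternative partner of Itga4 and a chain of gut-homing lymphocytes and mast cells, was scarce. It had 1 to 21 counts (0.0348 to 0.770 CPM) in the E14.5 libraries. P3 had 1.63, 1.65 and 5.98 CPM, P10 had 3.87, 3.14 and 6.36, P21 had 5.67, 0.104 and 10.98, and P56 had 11.9, 6.14 and 1.78. P21 replicate 2, with 2 counts, lay in the range of E14.5. No comparison passed, and E14.5 to P21 passed without that library (log2 change 4.48, adjusted p = 0.0256) and in DESeq2 (adjusted p = 0.00738). Of all libraries, those of P3 had the highest sums of 10 mast cell markers (646 to 1792 CPM of the total). Embryo libraries had sums from 2.11 up to 129. Itgb7 also lay higher in every P3 library than in every embryo library (log2 change 3.045 ± 1.34, adjusted p = 0.351). The mast cell sums were 179 to 436 at P10 and 4.05 to 11.5 at P21, where Itgb7 averaged 5.59 ± 5.44 CPM. The part of mast cells in the levels of Itgb7 was not tested. Madcam1, the ligand of the Itga4 and Itgb7 pair, had no count from P3 to P56.

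Itgb2, the CD18 chain that all leukocyte beta-2 integrins need, rose at the same 2 steps as Vcam1. Its libraries had 117, 86.1 and 88.3 CPM at E14.5, 202, 143 and 214 at P3, and 165, 125 and 143 at P10. The P21 libraries had 237, 257 and 272 CPM, and those of P56 had 314, 359 and 394. The E14.5 libraries lay below all others, P3 and P10 overlapped, P21 lay above both and P56 above P21.

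From E14.5 to P3 Itgb2 rose by a log2 change of 0.94 ± 0.17 (adjusted p = 0.0116), and from P10 to P21 by 0.82 ± 0.17 (adjusted p = 0.0366). Over the whole span to P21 the change was 1.40 ± 0.18 (adjusted p = 0.000134), which passed in every alternative run. The step to P3 did not pass when E14.5 replicate 2 was left out (adjusted p = 0.0713), nor without E14.5 replicate 3 (0.0557) or P3 replicate 3 (0.0593). The step to P21 was lost without any 1 of the P10 or P21 libraries (adjusted p = 0.0631 to 0.167), without E14.5 replicate 2 or 3 or P3 replicate 1 (0.0534 to 0.0546), with scaling by upper quartile (0.0533) or total count (0.09), and in a fit of these 2 ages alone (0.0846). Its estimate stayed between 0.65 and 0.93 in these fits.

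Itgam, the CD11b chain, climbed with age. It had 18.4, 24.4 and 20.8 CPM at E14.5, 27.3, 23.1 and 31.6 at P3, and 36.8, 45.6 and 36.0 at P10. At P21 it had 56.7, 51.5 and 52.2 CPM, and at P56 71.8, 98.5 and 82.1. Only E14.5 and P3 overlapped.

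No single step of Itgam passed, with log2 changes of 0.37 to 0.65 between neighbouring ages. Across the span from E14.5 it rose to P21 by 1.33 ± 0.20 (adjusted p = 0.000465), or by 1.02 with scaling by total count (adjusted p = 0.00333). P56 lay above P21 by 0.65 ± 0.19 (adjusted p = 0.195), which DESeq2 called (adjusted p = 0.0392). In GENCODE M21 another gene model, Gm49368, shares 3450 exon bases on the same strand, 68.7% of those of Itgam, and had 0 to 4 counts here. How the authors counted reads in shared bases is not given, so the level of Itgam is uncertain, and its changes compare the same bases in all libraries.

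PU.1 is the myeloid factor classically tied to the CD11b promoter. The 250 bases before the RefSeq start of Itgam (GRCm38.p6, chr7:128062390-128062639, plus strand) are shown with capitals at matches, on either strand, to GAGGAAG, a core of PU.1-like sites.
Itgam: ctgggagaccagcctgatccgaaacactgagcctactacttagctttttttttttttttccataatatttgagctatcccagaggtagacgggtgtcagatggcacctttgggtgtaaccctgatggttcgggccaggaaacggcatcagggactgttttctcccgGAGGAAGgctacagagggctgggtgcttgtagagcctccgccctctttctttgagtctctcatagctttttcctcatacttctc
The match in these bases lies at -84 to -78, and a second lies past the start, at 32 to 38. Of the 32851 promoter windows, which also run past the start, 13.6% hold at least 1. Among the 6 genes, Itgb7 had 1 match, past its start, and the other 4 had none.

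Itgal, the CD11a chain of LFA-1, had its highest means at E14.5 and P3. It had 23.1, 36.1 and 22.9 CPM at E14.5 and 34.3, 16.9 and 25.3 at P3. At P10 it had 2.704, 2.87 and 12.1 CPM, at P21 16.2, 9.18 and 7.37, and at P56 7.83, 11.3 and 15.9. All P10 libraries lay below all P3 libraries.

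The log2 change of Itgal from P3 to P10 was -2.12 ± 0.58 and did not pass (adjusted p = 0.182). It passed without P10 replicate 3 (-3.21, adjusted p = 0.0279) and in DESeq2 (adjusted p = 0.0123). From the embryo to P21 the change was -1.32 ± 0.56 (adjusted p = 0.152). LFA-1 is a lymphocyte integrin as well, and of 12 T and NK cell markers only 1 was above 10 CPM on average at any age, Cd4, which macrophages can also express. Of the 12, 6, 4, 7, 5 and 4 had no count in any library of E14.5, P3, P10, P21 and P56. Cd3e and Cd3d were among them at E14.5, P10 and P21 and had counts at P3 and P56. The part of lymphocytes in the levels of Itgal was not tested.

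Among the reads per kilobase of the 4 alpha chains that pair with Itgb2, the balance differed between the ages. Itgal made up 48.9, 51.1 and 43.7% in the E14.5 libraries and 48.6, 35.1 and 35.4% at P3. At P10 its share was 5.26, 4.60 and 19.5%, at P21 17.9, 11.4 and 8.95%, and at P56 7.70, 7.54 and 12.9%. Every library from P10 on lay below every library of E14.5 and P3. Itgam took most of the rest, with a mean share of 49.3 ± 3.57% at E14.5 and 82.7 ± 0.724% at P21. Itgax reached at most 8.16% and Itgad 6.90% in any library. These shares are a description with no test. Divided only by its exon bases outside Gm49368, Itgam would hold 75.6% at E14.5 and 93.9% at P21. Itgal would hold 23.1 and 4.54%, so the levels depend on that length. The same length applies to every library, so this alternative could hardly change the order of these ages and does not test it.

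**Figure D3:**
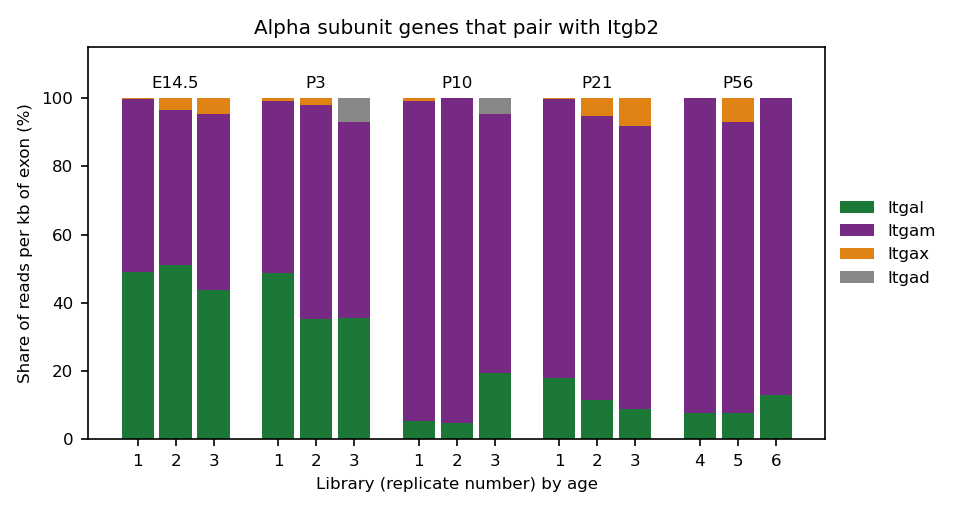
Share of reads per kb of exon among Itgal, Itgam, Itgax and Itgad, the alpha chains that pair with Itgb2, in percent on the vertical axis, for each library by age and replicate number. Each bar is 1 library and adds to 100%. Itgal takes 35.1 to 51.1% at E14.5 and P3 and 4.60 to 19.5% at the later ages.

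Markers of other cells rich in beta-2 integrins were set beside these chains. The sum of 12 neutrophil markers was 102, 223 and 1.54 CPM of the total at P3 and at most 25.0 in any other library. The E14.5 libraries had sums of 10 monocyte markers of 18.1 to 37.0 CPM of the total and those of P21 had 80.4 to 141. Of the 8 monocyte markers tested, 1, Ccr2, passed as higher from E14.5 to P21 (2.33 ± 0.69, adjusted p = 0.0425), beside 7.81% of all genes. For 11 dendritic cell markers, the lowest and highest sums on this scale were 229.6 and 267.1 CPM in embryos. They were 307.7 and 387.9 for P3, 365.2 and 462.2 for P10, 570.9 and 627.4 for P21, and 667.8 and 799.9 for P56. Of the 9 dendritic cell markers tested, 3 were called as higher and 1 as lower over the span to P21. Of all genes, 12.2% were called over this span and 7.81% were called as higher. The part of neutrophils, monocytes and dendritic cells in the levels of Itgam and Itgb2 was not tested. P56 replicate 4, with the highest monocyte sum, was the lowest P56 library for both genes. That library also had the lowest macrophage marker sum of its age (14180 CPM of the total, against 21980 and 21830). Its levels therefore do not show the part of monocytes.

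By comparison, 2 of the 9 genes were called from E14.5 to P3, Vcam1 and Itgb2, both higher, while 2.06% of all 14683 genes tested were called and 1.67% were called as higher. The median log2 change of the 9 was 0.05, beside 0.01 for all genes tested (0.0056). Their libraries did not overlap for 4 of the 9, against 26.4% of all genes. From P3 to P10 none was called (0.402% of all genes), with 3 at an unadjusted p under 0.05, against 10% of all genes. limma voom called none and DESeq2 called 1, Itgal. The median was -0.22, beside 0.01 (0.00881), and 3 of the 9 did not overlap, against 19.2%.

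From P10 to P21, 2 of the 9 were called, Vcam1 and Itgb2, both higher, against 1.14% of all genes (0.96% called as higher). All 9 estimates were above 0, their median was 0.89 beside -0.01 for all genes (-0.0115), and 6 of the 9 did not overlap, against 17.7%. From P21 to P56 none was called, against 0.272%, with 2 at an unadjusted p under 0.05 (Itgam and Itgb2), against 11.7% of all genes. limma voom called none and DESeq2 called 1, and the libraries of Itgam and Itgb2 did not overlap, against 13%. Over the span from E14.5 to P21, 3 of the 9 were called (Vcam1, Itgb2 and Itgam, all higher), against 12.2% of all genes (7.81% called as higher). Their median was 1.06 beside -0.01 (-0.009), and 6 did not overlap, against 33.4%. With scaling by total count the median of all genes moves to -0.18 from P10 to P21, -0.13 from P21 to P56 and -0.32 from E14.5 to P21. The share of calls that are higher then goes from 84.7 to 70.9% (P3 to P10), 83.9 to 47.9% (P10 to P21), 37.5 to 15.3% (P21 to P56) and 64.1 to 33.3% (E14.5 to P21).

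**Figure D4:**
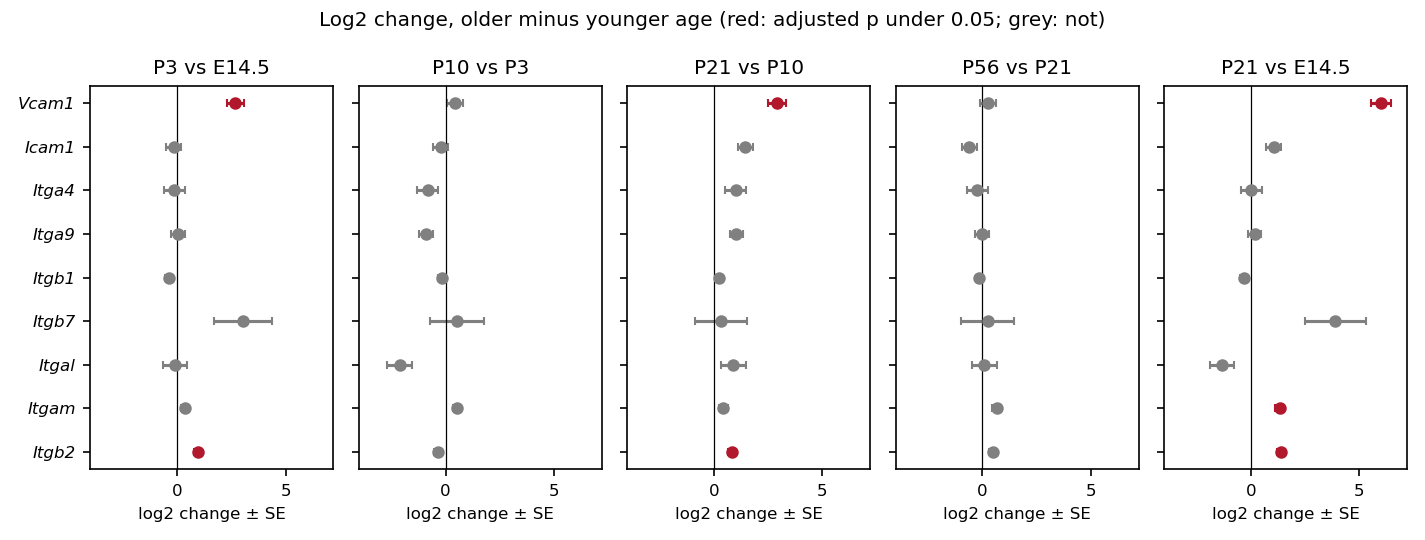
Log2 change of each of the 9 genes (older minus younger age) with its SE on the horizontal axis, 1 panel per comparison. Red points passed at an adjusted p under 0.05 and grey points did not. Vcam1 and Itgb2 are red from E14.5 to P3, from P10 to P21 and over the span from E14.5 to P21, where Itgam is red as well.

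Other integrin chains were examined as lists. Of 14 further alpha chains, 8 were tested and 1 was called in any comparison. Of all genes, 2.06% were called from E14.5 to P3 and 12.2% over the span to P21. Itga6, a laminin receptor chain, fell from 242 ± 14.6 CPM in the embryo to 105 ± 12.5 at P3 (log2 change -1.20 ± 0.23, adjusted p = 0.0129) and to 79.5 ± 30.6 at P21 (-1.61 ± 0.23, adjusted p = 0.000373). Its P3 call did not hold without E14.5 replicate 3, P3 replicate 2 or P3 replicate 3 (adjusted p up to 0.0689). Of 6 further beta chains, 3 were tested and none was called in the 5 comparisons by edgeR or limma voom. In edgeR 1 of the 3 had an unadjusted p under 0.05 from P10 to P21, from P21 to P56 and over the span to P21. Of all genes, 14.6%, 11.7% and 25.9% had such a p in these comparisons. DESeq2 called 1 of the 3 from P10 to P21. Itgb5, a partner of the alpha-v chain, differed between the 4 ages of one project (adjusted p = 0.00431), with 338 ± 27.6 CPM in the embryo, 273 ± 17.4 and 273 ± 22.8 at P3 and P10, and 432 ± 39.2 at P21.

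Of 15 other immunoglobulin-like adhesion molecules, 11 were tested, and 1 was called from E14.5 to P21, beside 12.2% of all genes. Cd47, the ligand of SIRP-alpha, rose from 246 ± 17.4 to 418 ± 35.7 CPM (log2 change 0.76 ± 0.13, adjusted p = 0.00132). Icam2 was at most 7.65 ± 2.65 CPM (E14.5). Of 8 selectins and their ligands, 5 were tested. Selplg, the ligand gene of P-selectin, rose from 70.3 ± 7.39 to 155 ± 15.3 CPM over that span (1.14 ± 0.20, adjusted p = 0.00158). Cd44, the hyaluronan receptor, differed between the ages of one project (adjusted p = 0.0409), with 132 ± 16.4 CPM in the embryo and 57.6 ± 25.7 at P21. It did not pass with upper quartile scaling (0.0544), or without any 1 of the E14.5 or P3 libraries, P10 replicate 2 or 3, or P21 replicate 3 (up to 0.156).

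Soluble and matrix ligands of these integrins moved both ways. Of 14 listed, 10 were tested, and from E14.5 to P21 1 rose and 2 fell, 3 of 10 beside 12.2% of all genes. Spp1, osteopontin, which binds the Itga4 and Itga9 receptors, fell from 534 ± 167 to 34.1 ± 22.7 CPM (log2 change -3.97 ± 0.72, adjusted p = 0.00225). Emilin1, a matrix ligand of Itga4 and Itga9 integrins, fell from 61.7 ± 14.1 to 13.4 ± 5.60 CPM (-2.20 ± 0.46, adjusted p = 0.00606), and also from P3 to P10 (-2.50 ± 0.47, adjusted p = 0.0354). That step did not pass in a fit of these ages alone (0.0712), or without any 1 of the P3 libraries, P10 replicate 1 or 2, E14.5 replicate 2 or 3, or P56 replicate 6 (up to 0.142). Ccn1, a matricellular protein that binds Mac-1, rose from 88.0 ± 10.9 to 219 ± 112.5 CPM (1.31 ± 0.36, adjusted p = 0.0288). It did not pass without P21 replicate 2 (0.157) or any 1 of the E14.5 libraries, with scaling by total count (0.0719), with no filter (0.0507) or in a fit of these ages alone (0.0521).

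Of 38 integrin activation and adaptor genes, 36 were tested. Over the span to P21 5 rose and 1 fell, 6 of 36 beside the 12.2% of all genes, and the median log2 change was 0.23 beside -0.01 for all genes (-0.009). Tln1 and Fermt3, the talin and kindlin that open integrins in leukocytes, passed in no comparison, with 219 ± 78.4 and 417 ± 30.9 CPM in the embryo and 196 ± 43.8 and 449 ± 19.9 at P21. Cyth1, a cytohesin that binds the tail of CD18, rose from 42.3 ± 4.79 to 253 ± 70.3 CPM (log2 change 2.58 ± 0.42, adjusted p = 0.00097). Ptk2b, the kinase Pyk2, rose from 21.8 ± 4.36 to 46.3 ± 15.4 (1.08 ± 0.27, adjusted p = 0.0156). That call was lost with scaling by total count (0.0741), in a fit of these ages alone (0.0802) and without E14.5 replicate 1 or P21 replicate 3 (up to 0.074).

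Flna, filamin A, which holds integrins inactive, fell from 301 ± 89.0 to 107 ± 29.7 CPM (log2 change -1.49 ± 0.30, adjusted p = 0.00441). From P10 to P21 3 of the 36 were called, all higher, beside 1.14% of all genes. Among them were Lyn, a Src family kinase (0.69 ± 0.14, adjusted p = 0.0309), and Cyth1 (1.84 ± 0.41, adjusted p = 0.0459). Lyn did not pass without any 1 of the P10 libraries, P21 replicate 1 or 2, or E14.5 replicate 2 (adjusted p up to 0.139). Cyth1 did not pass without any 1 library other than P56 replicate 4 or 5 (up to 0.208), nor with no filter (0.133). Neither passed with scaling by total count (0.0812 for Lyn, 0.0612 for Cyth1) or in a fit of these ages alone (0.0806 and 0.0558).

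All 23 genes listed for the NF-kappaB pathway, which drives Vcam1 and Icam1 in many cells, were tested. Across the span to P21 6 rose and 1 fell, 7 of 23 beside 12.2% of all genes, with a median log2 change of 0.45 (-0.009 over all genes). In the F-test 11 of the 23 differed between the ages of one project, beside 12.3% of all genes. Il1b, an inflammatory cytokine, stood at 188 ± 14.8, 453 ± 13.3, 944 ± 88.5 and 2362 ± 209 CPM at E14.5, P3, P10 and P21. It was called at each step and rose over the span by a log2 change of 3.65 ± 0.16 (adjusted p = 8.48e-09). Tnf, the other classical inducer of both adhesion molecules, fell from 569 ± 73.8 to 193 ± 47.2 CPM (-1.56 ± 0.17, adjusted p = 3.02e-05). Bcl3, a nuclear IkappaB protein, rose from 27.5 ± 4.58 to 144 ± 28.6 CPM (2.38 ± 0.33, adjusted p = 0.00031), and Birc3, a target and regulator of the pathway, from 64.2 ± 14.4 to 231 ± 36.9 (1.85 ± 0.32, adjusted p = 0.00184). From P10 to P21, where 1.14% of all genes were called, Il1b and Birc3 were the 2 called, the latter at 1.58 ± 0.32 (adjusted p = 0.0326). Birc3 did not pass there without any 1 of the P10 or P21 libraries, E14.5 replicate 2 or 3, or P3 replicate 2 (up to 0.17), nor with scaling by total count (0.0506). Nfkb1, the p50 gene, stood at 82.0 ± 8.05 CPM in the embryo and 79.3 ± 27.4 at P21.

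Vcam1, Icam1 and Itgb2 family proteins can be shed from the surface, and 10 shedding proteases and their inhibitors were listed and tested. Over the span to P21 2 rose and 1 fell, 3 of 10 beside 12.2% of all genes. Adam17, the main sheddase of Vcam1, fell from 249.3 ± 20.9 to 147 ± 22.5 CPM (log2 change -0.76 ± 0.19, adjusted p = 0.0158). It did not pass without E14.5 replicate 1 or P21 replicate 2 (up to 0.0707). Timp2, an inhibitor of metalloproteinases, rose from 430 ± 27.9 to 835 ± 35.6 CPM (0.96 ± 0.11, adjusted p = 4.72e-05). Mmp14, a membrane-bound metalloproteinase, rose from 21.03 ± 8.27 to 70.1 ± 21.7 CPM (1.74 ± 0.36, adjusted p = 0.00537). Adam8 differed between the ages of one project (adjusted p = 0.0186), with its highest mean at P10 (34.2 ± 11.1 CPM) and 10.8 ± 1.24 at P21, a call lost without P10 replicate 1 or P21 replicate 3 (0.0503 for both). From E14.5 to P3 Mmp14 (1.63 ± 0.35, adjusted p = 0.0286) and Timp2 (0.47 ± 0.11, adjusted p = 0.0359) were called, beside 2.06% of all genes. Mmp14 did not pass there without E14.5 replicate 1 or 3 or P3 replicate 2 or 3 (up to 0.143) or in limma voom (0.0643). Timp2 did not pass without any 1 of the E14.5 libraries, P3 replicate 1 or 3, or P10 replicate 1 (up to 0.161), with scaling by total count (0.0706) or with no filter (0.0686).

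The genes whose log2 levels ran most like each member were ranked by Pearson's r over all 15 libraries among 7396 genes of at least 20 CPM at some age. For Vcam1 they were Hfe, the haemochromatosis gene (r = 0.973), Rab7b (0.971), Cd300ld (0.969), Cd55 (0.968) and Tep1 (0.967). Hfe had 302 ± 22.0 CPM in the embryo and 734 ± 64.9 at P21, and Cd300ld, a myeloid surface receptor, 14.8 ± 4.64 and 215 ± 4.07. For Icam1 they were Rela (0.885), Trim25 (0.875), Hspa8 (0.87), Itprid2 (0.867) and Mapk14 (0.844). The libraries share age, project and depth, so these values describe likeness in this series and carry no test. The order depends on the P56 libraries: over the 12 libraries of one project Hfe ranked 2 for Vcam1 and Rela 6 for Icam1, while Rab7b and Tep1 ranked 15 and 23, and Trim25, Hspa8, Itprid2 and Mapk14 ranked 40, 13, 39 and 90.

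Over the 15 libraries Itgam ran closest to genes of MHC class II presentation, Cd74 (r = 0.966), H2-DMa (0.965) and H2-DMb1 (0.964), which ranked 19, 21 and 20 over the 12 libraries (r = 0.944 for each). Itgb2 ran closest to Ucp2 (0.959), Tgfbi (0.955) and Timp2 (0.954). Cd74 had 53.5 ± 2.47 CPM in the embryo, 4219 ± 588 at P21 and 15250 ± 1445 at P56. Itgb1 was most like Ccdc50 (0.919), Ubqln1 (0.917) and Ptpra (0.909), which ranked 11, 53 and 32 over the 12 libraries. Itga9 was most like Mast3 (0.936), Sec14l1 (0.918) and Septin8 (0.884), and Itga4 was most like Sh2b3 (0.878), Ergic1 (0.871) and Mis12 (0.853). Itgal was most like Exoc6b (0.885), Atp13a2 (0.858) and Wdr5 (0.852). For the scarce Itgb7 the closest were Nudt16 (0.851), Rab11b (0.85) and Adam33 (0.848).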

How the data were processed

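The deposited values were raw read counts per gene symbol, made by the authors with bcl2fastq 2.18, STAR 2.7.8a and featureCounts 2.0.2, per the submitters' processing notes. Genome build, annotation, strand setting and the rule for reads shared by genes are not given in the sources used here. RNA of sorted cells was amplified with a low-input kit with no molecular identifiers named, per the labels' protocols, so counts are not independent molecules.

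All 15 libraries entered 1 edgeR 4.0.16 fit (R 4.3.3) with age as the only term, TMM scaling, the filterByExpr filter (14683 genes) and robust quasi-likelihood tests. Benjamini-Hochberg adjustment ran over all genes tested, and an adjusted p under 0.05 was called. The 5 comparisons were neighbouring ages and P21 vs E14.5, and an F-test used the 12 libraries of one project (14287 genes). The code of the fit was run on simulated counts with the same dispersion (spread between libraries) for every gene. These libraries differ from that setting, so the run does not show how the fit performs here. The labels do not say that replicates are separate animals, while the series text gives 3 to 5 mice per age, so p-values measure the spread between libraries.

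The genes and lists were chosen with earlier results of these data known. All 9 genes were named, up to 4 called genes with the smallest p of each list per comparison, and the 5 (Vcam1, Icam1) or 3 (integrins) genes with the highest r. 1 called list gene is not reported here. Uncalled list genes given for context were chosen after their values were seen. Alternatives were RLE, upper quartile and total count scaling, no filter, a filter of 5 CPM in 3 libraries, thinned libraries, other sets of libraries, the replicate number as a block, each library left out, limma voom 3.58.1, DESeq2 1.42.0 and other gene lengths. Promoters are from RefSeq (GRCm38.p6). No count column was left out.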

Additional observations from a re-analysis of the deposited data

How the results depend on the processing

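Of 1341 alternative values of the 9 genes over the 6 tests, 1287 kept their side of the threshold, 16 lost a call, 38 gained one and 0 called values changed sign. Uncalled estimates did change sign in some alternatives, among them Itga4 (-0.27) and Itga9 (-0.13) from E14.5 to P21 and Itgal (-0.04) from P21 to P56 with total count scaling. The number of the 9 genes called from E14.5 to P3 was 1 with limma voom, from P3 to P10 1 with DESeq2, from P10 to P21 1 with upper quartile or total count scaling and 4 with DESeq2, from P21 to P56 1 with DESeq2, and from E14.5 to P21 5 with the 12 libraries of one project, with or without the replicate block, and with DESeq2. Leaving out each library gave 1 to 3, 0 to 1, 1 to 3, 0 to 0 and 3 to 5 of the 9 in these comparisons and 5 to 7 in the F-test.

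Counts of all genes moved more. E14.5 to P3 gave 302 genes, 681 with only these ages, 821 with DESeq2 and 127 to 402 leaving out each library. P3 to P10 gave 59, 116 with no filter, 91 with the 5 CPM filter, 109 with the 12 libraries, 99 with limma voom, 335 with DESeq2 and 21 to 112 when each library was left out. P10 to P21 gave 168, 73 with only these ages, 326 with the 12 libraries, 258 with the replicate block, 284 with limma voom, 748 with DESeq2 and 30 to 326 leaving out each library. P21 to P56 gave 40, 72 with total count scaling, 101 with no filter, 3 with only these ages, 524 with DESeq2 and 23 to 100 leaving out each library. E14.5 to P21 gave 1789, 2756 with DESeq2 and 1108 to 2009 leaving out each library. The F-test gave 1759, 3190 with DESeq2 and 1009 to 1851. The causes were not tested.

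In the 12 libraries, 18 pairs with the same replicate number had correlations of deviations of -0.0553 to 0.0618. Of the 12 libraries, 6 were closest to their own number. No pairing by number was seen, but with 3 libraries per age this check cannot exclude one. Among the list genes given, the replicate block ended the call of Cd44 in the F-test (adjusted p = 0.056) and of Mmp14 from E14.5 to P3 (0.068).

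The Itgal share of the beta-2 alpha chains at E14.5, P3, P10, P21 and P56 was 46.3 to 50, 35.2 to 42.0, 4.93 to 12.4, 10.2 to 14.6 and 7.62 to 10.3% leaving out each library, and the Itgam share 48.1 to 51.4, 54.2 to 60.3, 84.7 to 94.6, 82.4 to 83.1 and 86.3 to 89.7%. With no division by length, Itgal was 54.6% at E14.5 and Itgam 43.1% at E14.5 and 79.8% at P21. With the principal transcript Itgam was 45.5 and 80.6%. With the exon bases of Itgam outside Gm49368, Itgal was 23.1, 17.8, 4.54 and 3.21% and Itgam 75.6, 80.8, 93.9 and 96% at E14.5, P3, P21 and P56, 2 alternatives chosen after seeing the data. With 3 libraries per age and spreads up to 4.26-fold within an age for Itga4, moderate changes of the scarce chains could not be detected.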
